A study of Homo sapiens with 12 samples.

Results

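The clustered protocadherins were examined as 54 genes of the 60651 in the count table, taken as every row whose identifier mapped to a symbol PCDHA, PCDHAC, PCDHB, PCDHGA, PCDHGB or PCDHGC followed by digits only. RNA-seq had been run on 12 libraries from 2 established human cholangiocarcinoma (CCA, bile duct cancer) lines treated for 72 h. The EGI-1 line had 4 conditions with 2 libraries each, namely DMSO as the vehicle, decitabine at 500 nM, talazoparib at 200 nM, and both drugs together. The HUCCT1 line had the vehicle and 1000 nM decitabine, again with 2 libraries each. Decitabine is a nucleoside inhibitor of DNA methyltransferases and talazoparib is an inhibitor of PARP. EGI-1 cells grew in DMEM and HUCCT1 cells in RPMI1640. The library names of the talazoparib arm carry the tag T50, whereas its labels give 200 nM. Nothing in the labels states that the 2 libraries of a condition came from separate cultures, so p-values measure the spread between these libraries.

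Clustered protocadherins are cell-surface adhesion proteins of the cadherin family, known mainly from neurons, where each cell uses its own set of isoforms as an identity code. Most of these genes have their own promoter, and promoter choice is tied to DNA methylation, CTCF and cohesin. In the alpha and gamma clusters each variable exon is spliced to constant exons shared by the whole cluster, whereas beta genes have no constant exons. The C-type genes at the ends of the alpha and gamma clusters (PCDHAC1, PCDHAC2, PCDHGC3, PCDHGC4 and PCDHGC5) are known for broader use than the other isoforms.

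All members lie on the plus strand of chromosome 5 (GRCh38). The 16 alpha members span chr5:140786136-141012347, the 16 beta members chr5:141051374-141249365 and the 22 gamma members chr5:141330514-141512977. The gamma cluster holds 12 gamma A, 7 gamma B and 3 C-type genes. PCDHA14 is annotated as a transcribed pseudogene and has 0 exon bases of its own, and it had no count in any library. How reads on shared exons were assigned is not given in the sources used here. A part of an alpha or gamma value may therefore belong to a neighbour in the same cluster, or reads on shared exons may be missing from it. Of the 16 beta genes, 5 overlap another gene on the same strand (PCDHB8, PCDHB9, PCDHB14, PCDHB15 and PCDHB16), and 9 alpha, 9 beta and 1 gamma gene overlap one on the opposite strand.

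Most members carry a short conserved element just upstream of the transcription start, with the core CGCT. The element is shown for 3 sets, namely alpha genes with few or no reads, beta genes that fell under the combination, and gamma genes that moved under decitabine. Each line gives 36 bases of the plus strand from RefSeq (GRCh38.p14), 5′ to 3′, with the core in capitals.
PCDHA1 (chr5:140786082-140786117): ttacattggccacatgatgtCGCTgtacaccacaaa
PCDHA10 (chr5:140855837-140855872): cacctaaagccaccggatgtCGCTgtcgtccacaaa
PCDHB12 (chr5:141208639-141208674): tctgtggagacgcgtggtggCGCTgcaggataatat
PCDHB13 (chr5:141213861-141213896): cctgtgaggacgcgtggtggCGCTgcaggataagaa
PCDHB14 (chr5:141223259-141223294): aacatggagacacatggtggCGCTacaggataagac
PCDHGA1 (chr5:141330399-141330434): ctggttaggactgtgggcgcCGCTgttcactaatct
PCDHGA2 (chr5:141338699-141338734): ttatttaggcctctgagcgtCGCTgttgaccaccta
PCDHGA4 (chr5:141354956-141354991): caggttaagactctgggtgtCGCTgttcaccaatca
PCDHGB4 (chr5:141387613-141387648): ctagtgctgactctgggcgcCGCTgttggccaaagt
PCDHGB5 (chr5:141397859-141397894): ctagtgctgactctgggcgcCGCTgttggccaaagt
PCDHGA9 (chr5:141402710-141402745): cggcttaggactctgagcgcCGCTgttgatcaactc
PCDHGB6 (chr5:141407920-141407955): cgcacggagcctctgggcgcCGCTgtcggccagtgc
PCDHGA10 (chr5:141412927-141412962): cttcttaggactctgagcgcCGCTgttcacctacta
PCDHGA11 (chr5:141420968-141421003): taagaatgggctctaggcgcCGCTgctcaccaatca
PCDHGC3 (chr5:141475876-141475911): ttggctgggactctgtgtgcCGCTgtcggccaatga

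The RefSeq table held 52 start windows for 47 of the 54 members, and PCDHGA12 and PCDHB11, described below, were not among them. Over the 250 bases before each start, the letters CGCT were present on either strand in 50 of 52 member windows (96.2%) and in 64.8% of the 35116 windows in the table. Longer letters were shared less widely. ATGTCGCT was found in 9 of 13 alpha windows and in 0.182% of all windows, and GTGGCGCT in 12 of 14 beta windows and 0.94% of all windows. GNGNCGCT, which also matches GTGGCGCT, was found in all 11 gamma A, 7 of 11 gamma B, 3 of 5 C-type, 13 of 14 beta and 1 of 13 alpha windows and in 16.4% of all windows. The 36 bases shown for PCDHGB4 and PCDHGB5 are the same. No CGCT was found in the windows of PCDHA9 and PCDHB8. CpG dinucleotides numbered a median of 6 per member window (2 to 22) against 11 over all windows, and 15 in that of PCDHGC3.

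Total counts were 23139065 to 33181930 per library in EGI-1 and 32519985 to 34965627 in HUCCT1. The members together took 3382 to 5220 counts per EGI-1 library and 1128 to 1177 per HUCCT1 library. All 6 biliary epithelial keratin and adhesion markers exceeded 10 CPM (counts scaled to library size) in every library, and the 6 neuronal markers summed to 3.33 to 9.09 CPM. One library stood apart. EGI-1 combination replicate 2 had 13.1 CPM of PTPRC and 5.10 CPM of CD3E, genes of leukocytes and T cells, while the other EGI-1 libraries had at most 0.212 CPM of PTPRC and 0.121 CPM of CD3E. CD68, the other leukocyte marker examined, stayed at or below 0.343 CPM throughout EGI-1. Member calls and lists for the combination are therefore given with and without that library. In bulk RNA, fewer cells using a gene and less RNA per cell cannot be told apart.

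In untreated cells the lines differed in which clusters they used. With all 12 libraries scaled together, as in the test between the lines, EGI-1 vehicle had summed levels of 78.0 ± 1.65 CPM from the beta cluster, 85.1 ± 3.08 CPM from the gamma cluster and 2.93 ± 0.24 CPM from the alpha cluster (SD, n = 2). HUCCT1 vehicle had 35.7 ± 0.71 CPM from the gamma cluster, 1.52 ± 0.05 CPM from the beta cluster and 0.36 ± 0.14 CPM from the alpha cluster. All CPM given within a line further on were scaled over the libraries of that line and are not on the same scale as these. In the 4 HUCCT1 libraries, 20 of 54 members (13 alpha and 7 beta) never exceeded 3 counts, and the highest count of any alpha or beta gene was 14, for PCDHB16.

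**Figure D1:**
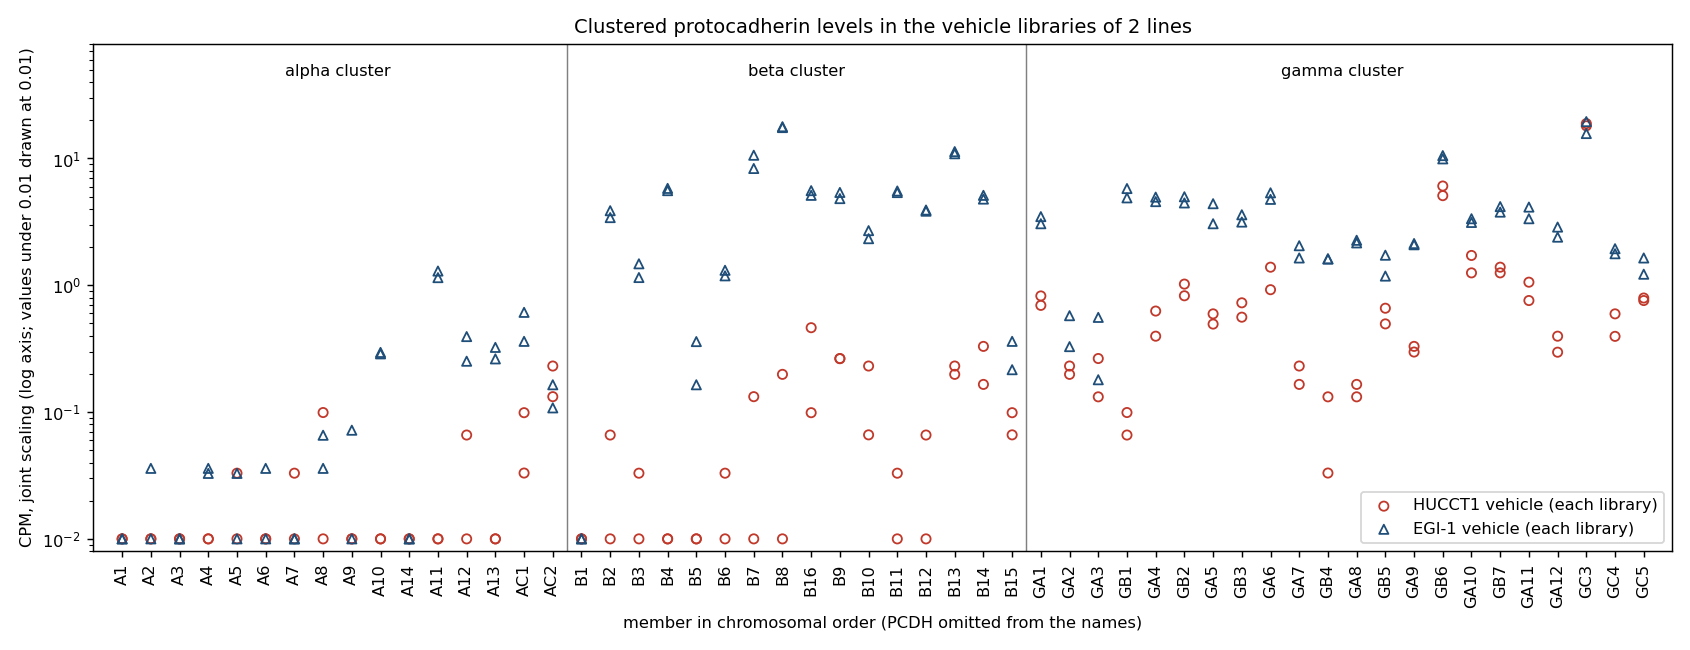
CPM (all 12 libraries scaled together) of each member in each of the 2 vehicle libraries of HUCCT1 (circles) and EGI-1 (triangles), on a log axis, in chromosomal order. PCDHGC3 lies at 15.7 to 19.5 CPM in all 4 libraries.

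Of 54 members, 41 passed the low-count filter of the joint fit, and 37 of these were lower in HUCCT1 vehicle than in EGI-1 vehicle, with none higher (edgeR, adjusted p under 0.05). Over all 25096 genes tested, 27.3% were lower in HUCCT1. None of the alpha and beta genes passed the filter in the HUCCT1 libraries, nor did PCDHGA3, PCDHGB1, PCDHGA7 and PCDHGA8. Those tested here passed through EGI-1, so the filter favoured genes high in EGI-1 and their calls are no support for a difference. Of these genes, PCDHB15 and PCDHGA3 were tested and not called. The line cannot be told apart from its medium or from the L3 (HUCCT1) or L4 (EGI-1) tag in its library names. By cluster, 4 of 4 tested alpha, 14 of 15 tested beta and 19 of 22 gamma members were lower. PCDHB8, the leading member in EGI-1, had 534 and 495 counts there and 0 and 6 in HUCCT1. PCDHB4 had 332 counts over both EGI-1 vehicle libraries and 0 over both in HUCCT1, at least 115-fold higher in EGI-1 on the joint scaling, against a floor of 3 counts over the group. PCDHA11, the alpha isoform with most reads, had 71 and 0, at least 24.6-fold higher.

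PCDHGC3 was the exception in size. It had 549 and 570 counts in HUCCT1 vehicle and 479 and 543 in EGI-1 vehicle, and its CPM values on the joint scaling were 18.1 and 18.9 against 15.7 and 19.5, which overlap. On that scaling the log2 difference of HUCCT1 from EGI-1 was 0.07 (SE 0.12, adjusted p = 0.653). Among the other C-type genes, PCDHGC4 and PCDHGC5 were lower in HUCCT1, at 0.40 and 0.60 against 1.77 and 1.94 CPM and 0.76 and 0.79 against 1.64 and 1.22 CPM. PCDHAC1 was also lower in HUCCT1, with 4 counts over both libraries against 28. PCDHAC2 had 11 and 8 counts over the respective vehicle pairs and was not tested.

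A per-length scale divided the CPM from all counts of a gene by the kilobases of its exons that no other gene on the same strand holds. On this scale PCDHGC3 led in HUCCT1 vehicle at 5.13 ± 0.10, followed by PCDHGB6 at 1.10 ± 0.15 and PCDHGB7 at 0.43 ± 0.03. The libraries of these 3 did not overlap. PCDHGB2 and PCDHGA10, the next in order, overlapped each other. In EGI-1 vehicle PCDHB8 led at 7.37 ± 0.07, then PCDHGC3 at 5.71 ± 0.86 and PCDHB7 at 2.67 ± 0.45. The libraries of PCDHB7 (2.35 to 2.99) overlapped those of PCDHGB6 (2.27 to 2.42), which came next. Dividing by all exon bases kept the same 3 leading members in both lines.

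Under decitabine at 1000 nM the mix of gamma isoforms in HUCCT1 changed, while the summed gamma level was 32.9 ± 1.19 CPM against 32.3 ± 0.32 CPM in vehicle. Gamma A genes together went from 6.13 ± 0.65 to 12.5 ± 1.00 CPM, gamma B genes from 8.32 ± 0.78 to 7.04 ± 0.48 CPM, and PCDHGC3 from 16.7 ± 0.31 to 12.4 ± 0.86 CPM. For gamma A, gamma B and PCDHGC3 alike, both decitabine libraries lay outside the range of the vehicle libraries. Only gamma members passed the filter in HUCCT1, 18 of 22. Of these, 8 rose and 3 fell, against 19.6% of 22479 genes that rose and 13.9% that fell. The rises of PCDHGA2, PCDHGB4, PCDHGA9 and PCDHGA12 concern genes that passed the filter only through the decitabine libraries. PCDHGA1 passed only through the vehicle libraries. The filter favoured these genes in the direction of their calls, so these calls are no support for a change. With any single library left out, fewer members and fewer of all genes were called than with all libraries. DESeq2 called 7 members, and over all genes 3624 rose and 2440 fell, against 4404 and 3121 with edgeR. PCDHGA10, PCDHGA12, PCDHGB5 and PCDHGB6 were called under each of the 10 alternatives tried.

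PCDHGA12, the last gamma A gene before the C-type genes, had 9 and 12 counts in the vehicle libraries and 44 and 74 under decitabine. Its log2 fold change was 2.45 (SE 0.41, adjusted p = 3.8e-05). PCDHGA10 had 38 and 52 counts in vehicle and 106 and 142 under decitabine, a log2 fold change of 1.43 (SE 0.27, adjusted p = 0.00013). In both genes both decitabine libraries were above both vehicle libraries. PCDHGA2 went from 7 and 6 counts to 25 and 33 (log2 fold change 2.11, SE 0.52, adjusted p = 0.0024). PCDHGA4 went from 19 and 12 to 50 and 33 (1.37, SE 0.40, adjusted p = 0.0096). The 2 smallest rises among gamma A genes were those of PCDHGA9, from 10 and 9 to 28 and 21 counts (1.32, SE 0.49, adjusted p = 0.042), and PCDHGA11. PCDHGA11 had 23 and 32 counts in vehicle and 64 and 44 under decitabine, a log2 fold change of 0.93 (SE 0.33, adjusted p = 0.032).

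Gamma B genes split. PCDHGB5 had 20 and 15 counts in vehicle and 56 and 53 under decitabine, a log2 fold change of 1.60 (SE 0.35, adjusted p = 0.0009). PCDHGB4 had 4 and 1 counts in vehicle and 18 and 19 under decitabine (2.80, SE 0.71, adjusted p = 0.0033). These are the 2 genes whose printed promoter elements are the same, and a part of the element in their rises was not tested. PCDHGB6, the second member by level in HUCCT1, fell from 184 and 154 counts to 80 and 55, with no overlap (log2 fold change −1.36, SE 0.23, adjusted p = 4.5e-05). PCDHGB2, PCDHGB3 and PCDHGB7 did not pass the test, with log2 differences of 0.22, 0.04 and −0.07.

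PCDHGA1, the first gamma gene of the cluster, fell from 25 and 21 counts to 11 and 3 (log2 fold change −1.74, SE 0.57, adjusted p = 0.019). PCDHGC3 fell from 549 and 570 counts to 418 and 430 (−0.43, SE 0.14, adjusted p = 0.015). PCDHGC3 thus made up 51.4% (95% Wilson interval 48.4 to 54.3) and 52.0% (49.1 to 55.0) of gamma counts in the vehicle libraries and 36.8% (34.0 to 39.6) and 38.5% (35.7 to 41.4) under decitabine, intervals that cover counting error only. PCDHGC4 and PCDHGC5 did not pass the test, at log2 differences of 0.18 (SE 0.52) and −0.54 (SE 0.44). The alpha cluster stayed at 8 to 20 counts and the beta cluster at 29 to 47 counts over the 4 HUCCT1 libraries. No gain of alpha or beta reads under decitabine was detectable at this depth, with beta sums of 1.37 ± 0.03 CPM in vehicle and 0.95 ± 0.19 CPM under decitabine. CpG numbers in the 250 upstream bases were 2 to 11 for the 7 risers with a window (first listed start). They were 3, 14 and 15 for the fallers PCDHGA1, PCDHGB6 and PCDHGC3, and their part in the changes was not tested. Other marker lists moved as well in HUCCT1. The 4 fibroblast markers summed to 33.2 and 33.6 CPM in vehicle and 149.5 and 174 CPM under decitabine, mostly COL1A1, while LUM went from 9.39 and 6.55 CPM to 4.22 and 3.44 CPM. The 6 neuronal markers summed to 3.33 and 4.15 against 9.01 and 9.06 CPM. The 6 biliary epithelial markers summed to 13220 and 14610 CPM in vehicle and 8219 and 9317 CPM under decitabine, mostly keratins. Among them CDH1 went the other way, from 275.4 and 284.2 CPM to 476.9 and 449.4 CPM. The part of these marker lists in the gamma changes was not tested.

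**Figure D2:**
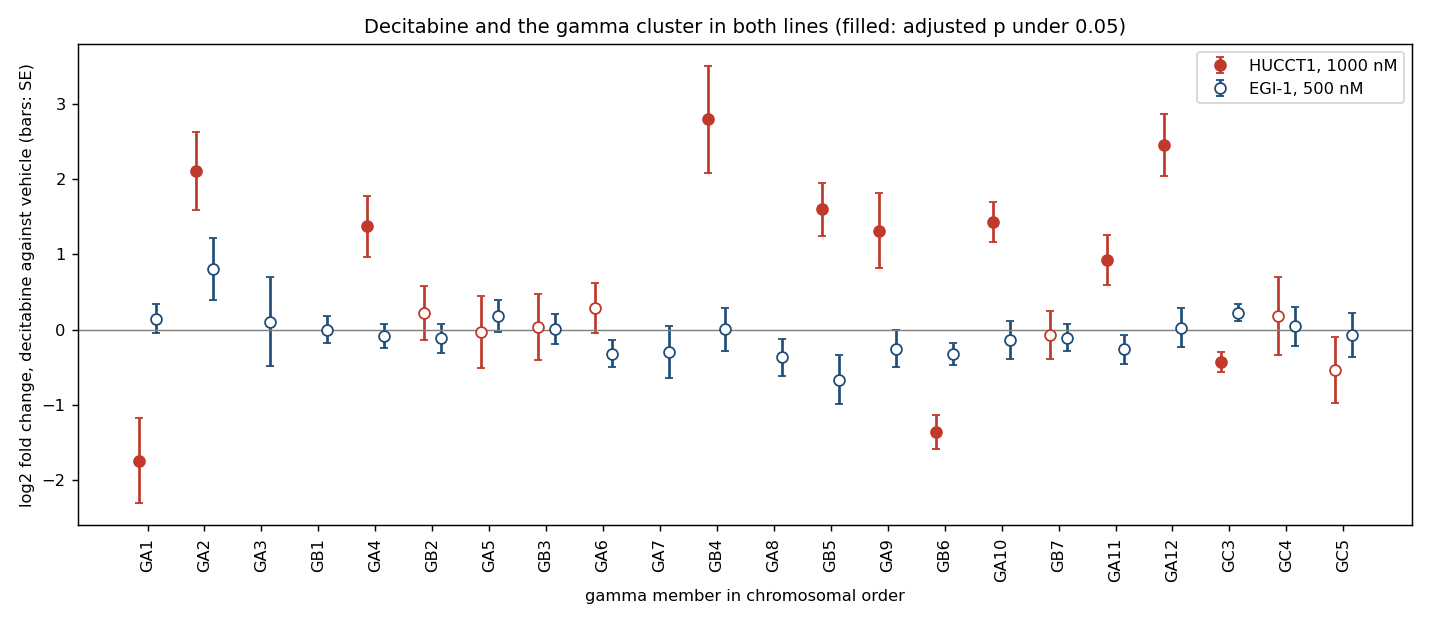
Log2 fold change of each tested gamma member under decitabine against vehicle (bars, SE), in chromosomal order, for HUCCT1 (red) and EGI-1 (blue). Filled points have an adjusted p under 0.05, which holds for 11 members in HUCCT1 and for none in EGI-1.

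In EGI-1, 500 nM decitabine alone moved no member past the threshold. Of 41 tested members 0 were called, against 0.544% of 22406 genes, and 1 member (PCDHGB6, lower) had an unadjusted p under 0.05. DESeq2 also called 0. Log2 differences ran from −0.66 for PCDHGB5 to 0.81 for PCDHGA2. PCDHGB6 had 11.1 and 10.5 CPM in vehicle and 7.34 and 9.90 CPM under decitabine (−0.33, SE 0.15, adjusted p = 0.501). PCDHGA12 and PCDHGA10, which rose in HUCCT1, differed by 0.03 (SE 0.26) and −0.14 (SE 0.25).

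The decitabine effect itself was compared between the lines in one fit. It was higher in HUCCT1 for 7 of 41 tested members, against 8.74% of 25096 genes, and lower for 4, against 7.2%. The 7 were PCDHGA4, PCDHGB4, PCDHGB5, PCDHGA9, PCDHGA10, PCDHGA11 and PCDHGA12, and the 4 were PCDHGA1, PCDHGB6, PCDHGC3 and PCDHB16. The dose differed between the lines, so line and dose cannot be told apart here. Without HUCCT1 vehicle replicate 2, 7 members were called in all, and PCDHB16 was not among them.

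PCDHGC3 was higher in EGI-1 under talazoparib alone. Its vehicle libraries had 16.6 and 20.6 CPM and its talazoparib libraries 28.0 and 24.4 CPM, with no overlap (log2 fold change 0.49, SE 0.11, adjusted p = 0.016). It was the only member called among 41, a share near the 2.83% of 22406 genes that were higher. Without vehicle replicate 1 or without talazoparib replicate 1 no member was called. Of 41 log2 differences, 29 were below 0 (median −0.13, against −0.003 over all genes), and PCDHGB6 was nearest to a call at −0.52 (SE 0.15, adjusted p = 0.058).

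With both drugs together, 14 beta, gamma A and gamma B genes of EGI-1 fell and PCDHGC3 rose. Gamma A and B genes together went from 67.6 ± 0.49 CPM in vehicle to 44.6 ± 0.24 CPM, and the beta cluster from 82.2 ± 1.61 to 63.8 ± 1.40 CPM, with no overlap of libraries. The leukocyte-bearing library had 44.5 CPM of gamma A and B and 64.8 CPM of the beta cluster, and the other combination library 44.8 and 62.8 CPM. The alpha cluster had 4.16 ± 0.12 CPM against 3.09 ± 0.25 CPM, with no alpha member called. Those 14 stood among 41 tested members, while 7.61% of 22406 genes fell and 11.1% rose. The fallers were 5 of 15 beta, 7 of 12 gamma A and 2 of 7 gamma B genes. The median log2 difference was −0.42 over the tested members and −0.02 over all genes, and 32 of 41 were below 0. In 27 of all 54 members both combination libraries lay below both vehicle libraries, as did 26 of the 41 tested members and 31.8% of all genes tested.

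**Figure D3:**
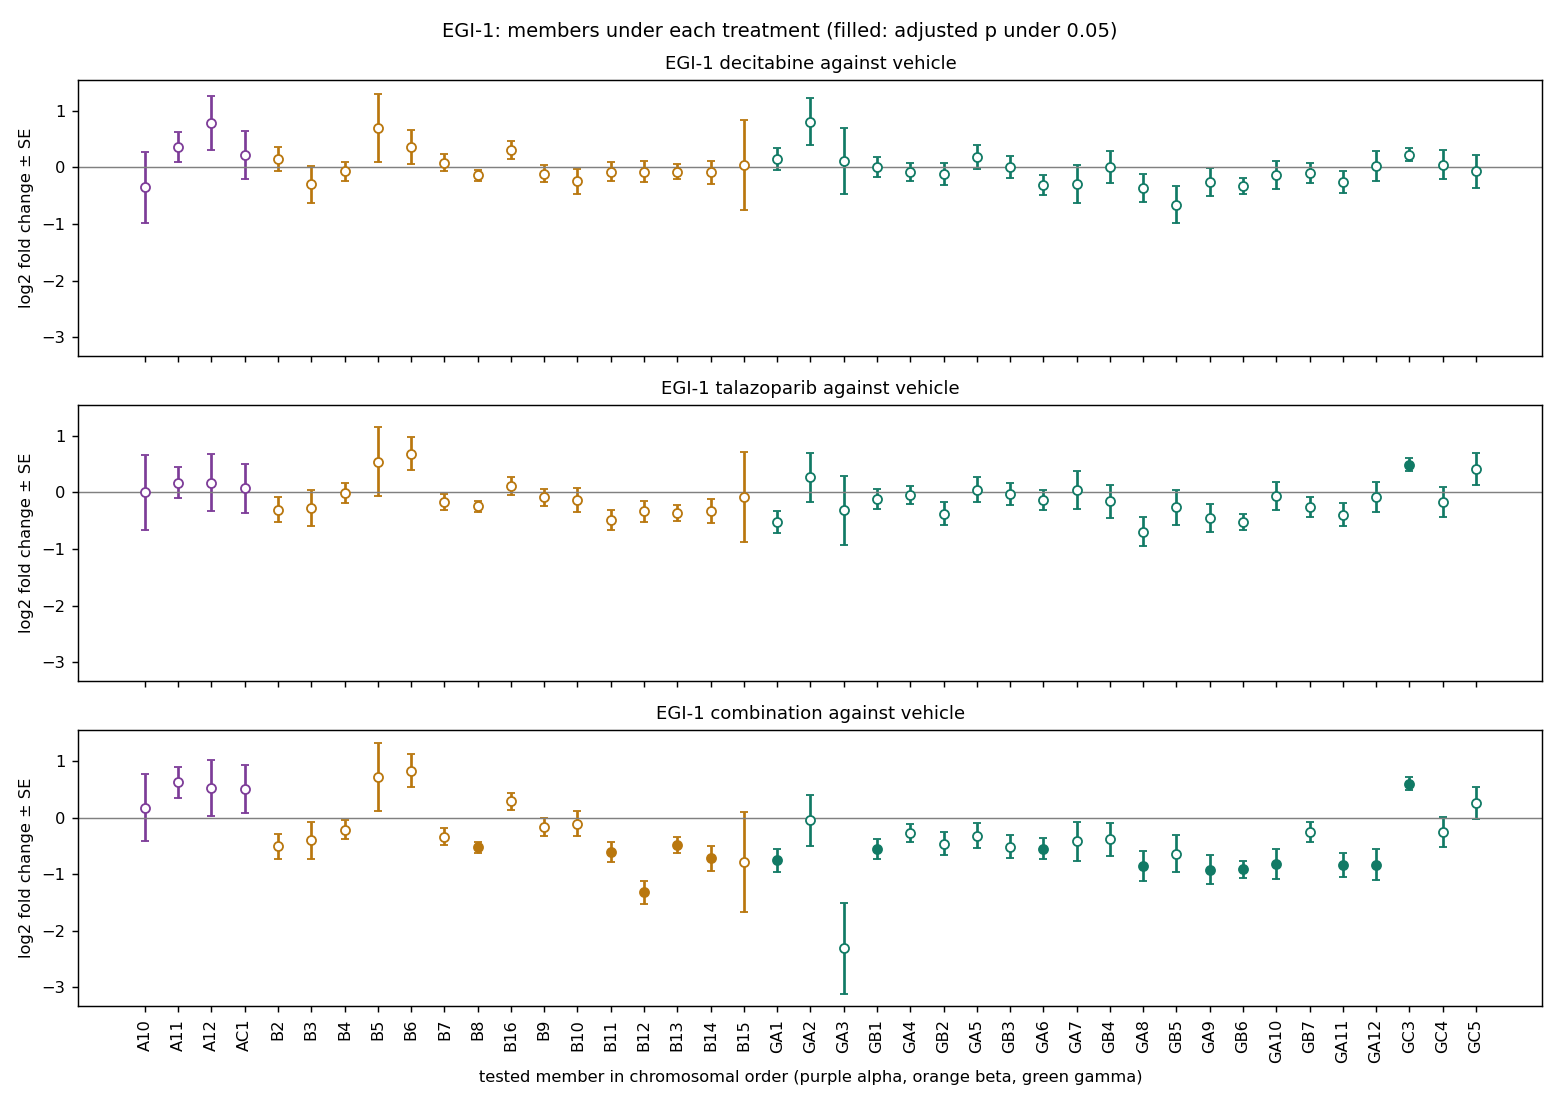
Log2 fold change (points) and SE (bars) of the 41 tested members in EGI-1 under decitabine, talazoparib and the combination, each against vehicle, in chromosomal order. Filled points have an adjusted p under 0.05, of which there are 0, 1 and 15, and the 3 panels share the same vehicle libraries.

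Among the beta genes, which code for the same kind of adhesion protein without constant exons, PCDHB12 changed most. It had 4.05 and 4.13 CPM in vehicle and 1.502 and 1.759 CPM under the combination (log2 fold change −1.32, SE 0.21, adjusted p = 0.0002). PCDHB8, the leading EGI-1 member, had 18.5 and 18.8 CPM in vehicle and 12.5 and 13.3 CPM under the combination (−0.53, SE 0.10, adjusted p = 0.0013). PCDHB14 had 5.41 and 5.04 CPM against 2.703 and 3.59 CPM (−0.72, SE 0.21, adjusted p = 0.025). The libraries of these 3 genes did not overlap between the arms. PCDHB11 and PCDHB13, at −0.61 (SE 0.18, adjusted p = 0.021) and −0.48 (SE 0.14, adjusted p = 0.025), did not overlap either. PCDHB7 had 8.80 and 11.2 CPM in vehicle and 8.20 and 7.62 CPM under the combination and did not pass the test (−0.34, adjusted p = 0.13). PCDHB6 had the highest log2 difference of any member, 0.83 (SE 0.29, adjusted p = 0.054), and it did not pass either.

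The gamma fallers were spread along the cluster. PCDHGB6 had 11.1 and 10.5 CPM in vehicle and 5.28 and 6.14 CPM under the combination (log2 fold change −0.91, SE 0.15, adjusted p = 0.00038). PCDHGA11 had 3.53 and 4.36 CPM against 2.27 and 2.14 CPM (−0.84, SE 0.21, adjusted p = 0.0081). PCDHGA1 had 3.67 and 3.22 CPM against 2.10 and 2.00 CPM (−0.75, SE 0.20, adjusted p = 0.016). In these 3 genes, too, every combination library was below every vehicle library. The other gamma fallers were PCDHGA6, PCDHGA8, PCDHGA9, PCDHGA10, PCDHGA12 and PCDHGB1, with log2 fold changes of −0.92 to −0.55 and adjusted p of 0.020 to 0.047. PCDHGA10 had 3.53 and 3.30 CPM in vehicle and 2.57 and 1.35 CPM under the combination, so its 2 combination libraries differed by more than its vehicle libraries did.

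PCDHGC3 had 16.6 and 20.6 CPM in EGI-1 vehicle and 30.0 and 26.2 CPM under the combination (log2 fold change 0.60, SE 0.11, adjusted p = 0.0012). Its share of gamma counts was 19.0% (95% Wilson interval 17.5 to 20.6) and 22.4% (20.8 to 24.1) in vehicle and 38.3% (36.1 to 40.5) and 35.4% (33.4 to 37.4) under the combination. Between these, it was 26.5% and 23.4% under decitabine and 31.3% and 28.6% under talazoparib. The other C-type genes were not called, with log2 differences of −0.25 for PCDHGC4, 0.26 for PCDHGC5 and 0.51 for PCDHAC1. PCDHAC2 had 5 and 3 counts in vehicle and 2 and 4 under the combination and was not tested.

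Without combination replicate 2, the library with leukocyte transcripts, 31 of 41 log2 differences were below 0 with a median of −0.36, and 8 members were called, 7 lower and 1 higher. All 8 were among the 15. Without it, 2 members were called against decitabine, 0 against talazoparib and 0 for the departure from the sum. Without combination replicate 1, vehicle replicate 1 or vehicle replicate 2, the median log2 difference from vehicle over the 41 was −0.41, −0.41 and −0.42. In each of these fits, and without combination replicate 2, fewer of all genes were called against vehicle as well. PCDHB12, PCDHB8 and PCDHGB6 were called under each of the 11 alternatives tried, and the adjusted p of PCDHGC3 reached 0.053 at its highest, without vehicle replicate 1.

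**Figure D4:**
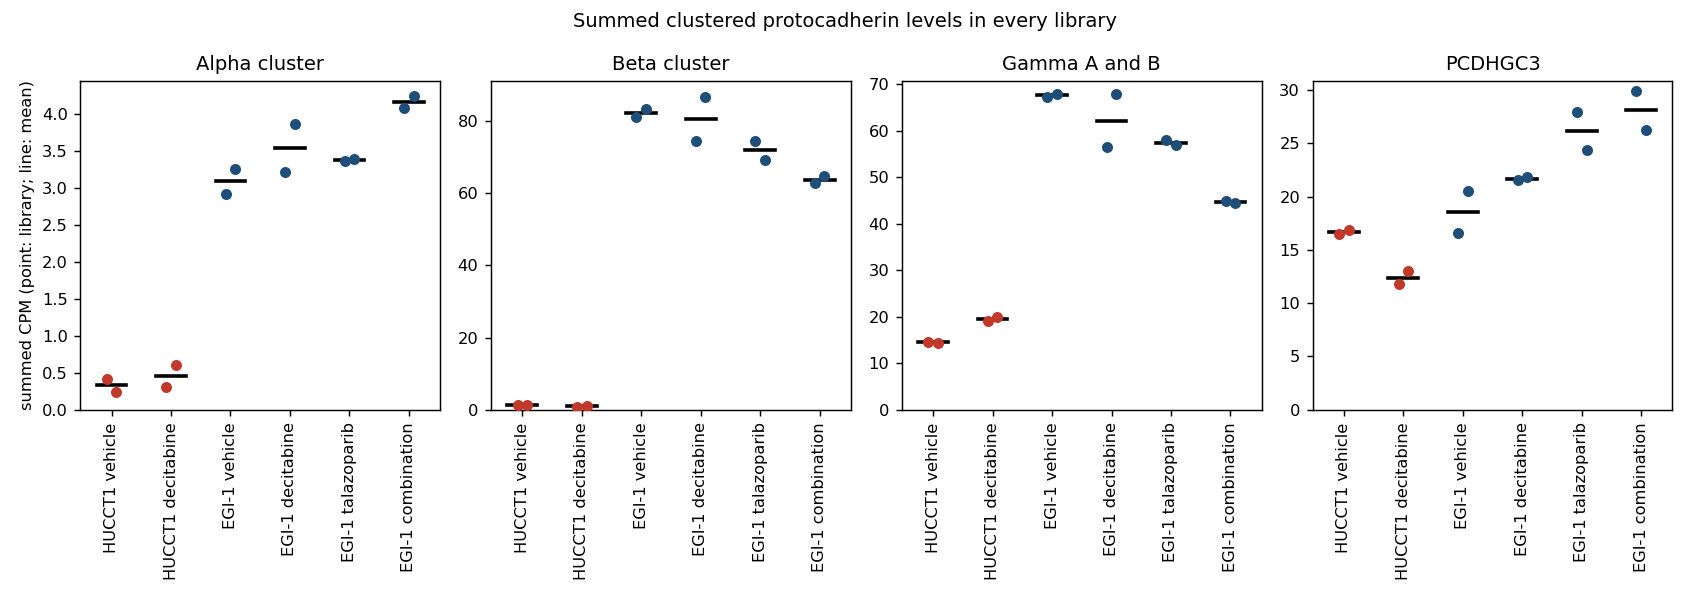
Summed CPM of the alpha cluster, the beta cluster, the gamma A and B genes, and PCDHGC3 in each library (points) with the mean of the 2 libraries (line), HUCCT1 in red and EGI-1 in blue. Under the combination gamma A and B sit at 44.6 ± 0.24 CPM (SD, n = 2), below every other EGI-1 library.

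Set against single agents, the combination lowered 4 of 41 members relative to decitabine (PCDHB8, PCDHB12, PCDHGA1 and PCDHGB6), against 3.26% of 22406 genes. Relative to talazoparib it lowered 1, PCDHB12 (log2 fold change −0.98), against 0.567%. The test of whether the combination departed from the sum of the single effects called 0 members, against 0.161% of genes, with 1 member at an unadjusted p under 0.05, and DESeq2 also called 0. PCDHB12 read 3.36 and 3.15 CPM under talazoparib and 4.09 and 3.67 CPM under decitabine, both above its 1.502 and 1.759 CPM under the combination. Against decitabine, 10 members were called without decitabine replicate 1 and 2 without decitabine replicate 2, and against talazoparib 0 were called without either talazoparib library in turn. These comparisons share arms and are not independent.

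Genes known to act on these clusters were followed as lists, which were chosen with earlier results of these data known. For comparison, 13.9% of all genes tested fell and 19.6% rose in HUCCT1 under decitabine, and 7.61% fell and 11.1% rose in EGI-1 under the combination. Of 11 architectural factors, 8 fell and 0 rose in HUCCT1 under decitabine (median log2 difference −0.35), and 5 fell and 0 rose in EGI-1 under the combination (median −0.18). CTCF, the insulator protein that binds these promoters, fell from 49.8 ± 1.00 to 36.9 ± 2.06 CPM in HUCCT1 (log2 fold change −0.43, adjusted p = 0.0043) and from 89.7 ± 3.62 to 62.03 ± 3.51 CPM in EGI-1 (−0.53, adjusted p = 7.8e-05). RAD21, a cohesin subunit, fell by 0.39 and 0.29 on the log2 scale. Of 16 tested silencing factors, 9 fell and 1 rose in HUCCT1 under decitabine, and 9 fell and 2 rose in EGI-1 under the combination. UHRF1, which guides maintenance methylation, was among the fallers in both (−0.71 and −0.38), and DNMT3B, a de novo DNA methyltransferase, among the risers (0.57 and 0.43). Under decitabine alone in EGI-1, 0 members of either list were called. Under talazoparib alone, CTCF (−0.29, adjusted p = 0.033), STAG1 (−0.31, adjusted p = 0.027) and EZH2 (−0.34, adjusted p = 0.0099) fell and none rose. Without combination replicate 2, 4 architectural factors fell under the combination, CTCF among them (−0.59, adjusted p = 0.00058), and 5 silencing factors fell and 2 rose.

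Genes around and beside the clusters did not follow one direction. Of 18 neighbouring genes on 5q31, 16 were tested in HUCCT1, where 2 rose (RELL2 and TAF7) and 2 fell (ARAP3 and ZMAT2) under decitabine, and 17 in EGI-1, where 4 rose and 0 fell under the combination. Of the 11 non-clustered protocadherins listed, not all passed the filter in EGI-1. PCDH7 fell in both comparisons, from 10.6 ± 0.95 to 6.67 ± 0.25 CPM in HUCCT1 and from 180.4 ± 0.15 to 98.8 ± 0.25 CPM in EGI-1. PCDH1 fell in HUCCT1 (−0.31, adjusted p = 0.028) and rose in EGI-1 (0.33, adjusted p = 0.0047). Among 20 intracellular partners and processing enzymes, 2 rose and 3 fell in HUCCT1 and 2 rose and 1 fell in EGI-1, shares near or below those of all genes. RET, a receptor kinase that binds these proteins, was at 0 in both HUCCT1 vehicle libraries and at 1.05 ± 0.65 CPM under decitabine. It passed the filter only through the decitabine libraries, so its call among the 2 risers is no support for a change. Of 5 cluster pseudogenes listed, not all of which were tested, PCDHGB8P and PCDHGB9P fell in EGI-1 under the combination (−1.02 and −1.19). Without combination replicate 2, these were −0.73 and −0.87 and not called, PCDH7 (−0.87) and PCDH1 (0.36) were called as before, 2 neighbours and 2 partners rose, and none of either list fell.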

How the data were processed

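The authors deposited one table of raw counts per gene for the 12 libraries. The labels' processing notes name fastp, Trim Galore, HISAT2, featureCounts and GRCh38, and the table has the featureCounts layout, whereas the published methods name STAR and RSEM. The strand setting, the treatment of reads over several genes and the annotation are not given in the sources used here. Methods describe EGI-1, and the HUCCT1 conditions come from the labels. Identifiers were matched to symbols for 60437 of 60651 genes. Gene spans and exon lengths came from GENCODE 44, which held 44 of the 54 members at the same identifier version.

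Counts were tested as deposited with edgeR 4.0.16 (quasi-likelihood, TMM factors, filterByExpr with a minimum count of 10, R 4.3.3), HUCCT1 and EGI-1 each in one fit with all their conditions and the lines together in a fit of all 12 libraries. Benjamini-Hochberg adjusted p under 0.05 over all genes tested counted as a call. CPM are on TMM-scaled library sizes of each line's fit, or of all 12 libraries where the vehicles of the lines are compared. The lists without the leukocyte-bearing library and the second scaling were chosen after seeing the data. SE is the log2 fold change divided by the square root of F. Alternatives were RLE and upper-quartile factors, no filter, DESeq2 1.42.0, the replicate number or name series as a block, only the 2 arms compared, all 12 libraries in 1 fit and each library left out. The fitting functions were tested on simulated data with changes in genes of 15 to 200 mean counts. Of 100 changes of 1.5-fold, 2 were recovered for decitabine in HUCCT1 and 3 for the combination in EGI-1. Of 100 changes of 2.5-fold, 49 and 56 were recovered. False calls numbered 23 among 21683 genes and 13 among 21867. Fewer genes were changed there than were called in the data. A member that was not called may therefore still have changed. With 2 libraries against 2, a permutation test cannot go below 0.333 and was not used.

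Members named are those called in decitabine against vehicle (each line) or the combination against vehicle, up to 12 each by adjusted p, the 3 leading by level per line, and the C-type genes. Others named (PCDHA11, PCDHB4, PCDHB6, PCDHB15, PCDHB16 and the uncalled or further gamma genes) were chosen after their values were seen. Members and lists were chosen with earlier results of these data known.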

Additional observations from a re-analysis of the deposited data

Results flagged for a closer look

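The decitabine effect differed between HUCCT1 (1000 nM) and EGI-1 (500 nM) for 11 members by the test of the difference itself (edgeR, adjusted p under 0.05 over 25096 genes), with the values below given as HUCCT1 minus EGI-1 on the log2 scale. It was higher in HUCCT1 by 2.80 for PCDHGB4, 2.44 for PCDHGA12, 2.28 for PCDHGB5, 1.59 for PCDHGA9, 1.59 for PCDHGA10, 1.47 for PCDHGA4 and 1.21 for PCDHGA11. It was lower in HUCCT1, at −1.87 for PCDHGA1, −1.02 for PCDHGB6, −0.64 for PCDHGC3 and −3.25 for PCDHB16. PCDHB16 had 3 and 14 counts in HUCCT1 vehicle and 1 and 1 under decitabine, and without HUCCT1 vehicle replicate 2 its difference was −1.79 (adjusted p = 0.375). PCDHB16 did not pass the filter in the fit of HUCCT1 alone. The log2 differences of PCDHGC3 had opposite signs, −0.43 in HUCCT1 and 0.22 in EGI-1, the latter not called on its own (adjusted p = 0.588). Dixon's test, which needs at least 4 samples in a group, could not be run on single members.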

How the results depend on the processing

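Leaving out 1 library each, counts of members called ranged from 7 to 9 for decitabine in HUCCT1 (11 with all libraries), 4 to 8 for the combination against vehicle (15), 2 to 10 for the combination against decitabine (4), 0 to 1 for the combination against talazoparib (1), 0 to 1 for talazoparib (1), 34 to 36 between the vehicles (37) and 7 to 11 for the line difference in the decitabine effect (11). The 7 for the line difference came without HUCCT1 vehicle replicate 2, and the 10 for the combination against decitabine without decitabine replicate 1. For these comparisons, fewer of all genes were called with a library left out too, except for the combination against either single agent. There the counts went either way. DESeq2 called 7 members in HUCCT1 and 7 for the combination against vehicle. Over all genes it called 2208 higher and 1165 lower for the combination, against 2489 and 1705 with edgeR. With no filter 11 were called for the combination against decitabine and 2 for talazoparib. With only the 2 arms compared these were 2 and 3, and upper-quartile factors gave 2 for talazoparib. Over all genes the combination against decitabine had 1284 higher and 1021 lower with no filter. With 2 arms these were 606 and 357, and in the main fit 990 and 730. Among the named log2 differences recomputed (called members, and PCDHAC1, PCDHGC4 and PCDHGC5 in HUCCT1 under decitabine and EGI-1 under the combination), the sign changed for PCDHGC4 and PCDHGC5, both uncalled. Leaving out 1 library each, theirs ranged from −0.56 to 0.65 for PCDHGC4 in HUCCT1, and from −0.58 to 0.044 for PCDHGC4 and −0.054 to 0.50 for PCDHGC5 under the combination. Over all 41 tested members under decitabine in EGI-1, 22 were below 0, against 16 and 31 without decitabine replicates 1 and 2. Same-numbered libraries did not deviate together in EGI-1 (r from −0.242 to 0.204), and HUCCT1 has 2 pairs (r = 0.235), so a replicate block rests on numbers alone. With the block by replicate number 12 members were called for the combination and 11 in HUCCT1. Over all genes the block raised the HUCCT1 calls from 4404 higher and 3121 lower to 5488 and 4648. For the combination it lowered them from 2489 and 1705 to 2181 and 1335. The main fits carry no block. The cause of these shifts was not tested. Depth limits the alpha cluster and, in HUCCT1, the beta cluster.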
